A study of Mus musculus with 8 samples.

Results

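Cholesterol and fatty acid synthesis was followed in mouse brain through 35 genes, picked by symbol out of 55780 in the table. They comprise 20 enzymes of the route from acetyl-CoA to cholesterol, among them Ggps1 on a side branch. The rest are 6 genes of SREBP control and sterol transport, 3 of cholesterol efflux and carriage, and 6 of fatty acid synthesis and desaturation. The RNA came from brain of C57BL/6 mice in 8 libraries, 4 named Ep1 and 4 named Ctrl. By their treatment labels, Ep1 1 and Ep1 2 received PDT at 10 J/cm2, Ep1 3 and Ep1 4 received PDT at 20 J/cm2, and the 4 Ctrl libraries were untreated. The series title and design text speak of MNP and of magnetic force instead, so the kind of treatment is not settled, and Ep1 serves here only as a group name. The labels give neither the age of the mice nor whether each library came from its own animal. Every p-value therefore rests on the spread among these 8 samples, and that spread may be technical.

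Cells build cholesterol from acetyl-CoA by way of mevalonate, isoprenoid units, squalene and lanosterol. When sterols in the endoplasmic reticulum are low, SCAP carries the SREBP precursors to the Golgi, where proteases free the transcription factors that raise the genes of this pathway, while INSIG proteins hold the SCAP and SREBP complex back when sterols are high. The brain makes nearly all of its own cholesterol, chiefly in astrocytes and in myelinating oligodendrocytes, because lipoproteins of the blood do not cross the blood-brain barrier, and it moves cholesterol between cells on particles that carry APOE.

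Sterol-responsive promoters are known for a sterol element, bound by SREBPs, beside CCAAT boxes, bound by NF-Y. Promoter sequences came from RefSeq on GRCm38.p6, as windows of 250 bases before and 50 bases after a start site, and 27 of the 35 genes matched by symbol. No window was matched for Fdps, Fdft1, Sqle, Stard4, Abcg1, Fads1, Scd1 and Scd2. The sterol element TCACNCCAC, searched on both strands, stood in 1 of the 27 genes, Hmgcs1, against 1.44% of all 27025 genes with a window. The 250 bases before the start are shown for Hmgcs1 and for the 4 other genes that had a window with a CCAAT box and kept their higher call in Ep1 under every alternative tried, a choice made after the values were seen. Capitals mark CCAAT or its reverse complement ATTGG and, in Hmgcs1, the sterol element.
Mvd, chr8:122443423-122443672, minus strand: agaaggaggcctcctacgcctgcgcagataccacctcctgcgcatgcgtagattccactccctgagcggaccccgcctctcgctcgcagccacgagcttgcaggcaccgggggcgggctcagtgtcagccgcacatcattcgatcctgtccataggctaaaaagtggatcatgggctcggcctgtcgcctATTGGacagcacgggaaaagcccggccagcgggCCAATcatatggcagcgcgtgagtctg
Pmvk, chr3:89454291-89454540, plus strand: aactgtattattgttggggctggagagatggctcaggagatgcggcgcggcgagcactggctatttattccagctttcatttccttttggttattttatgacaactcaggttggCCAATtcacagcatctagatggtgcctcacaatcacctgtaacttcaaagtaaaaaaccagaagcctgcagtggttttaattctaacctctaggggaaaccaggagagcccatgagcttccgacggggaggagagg
Hmgcs1, chr13:119690101-119690350, plus strand: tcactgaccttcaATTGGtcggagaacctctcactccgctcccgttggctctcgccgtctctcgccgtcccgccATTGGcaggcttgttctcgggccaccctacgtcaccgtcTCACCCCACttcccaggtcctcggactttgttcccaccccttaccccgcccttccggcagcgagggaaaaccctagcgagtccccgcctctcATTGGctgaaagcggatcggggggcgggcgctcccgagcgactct
Hsd17b7, chr1:169969206-169969455, minus strand: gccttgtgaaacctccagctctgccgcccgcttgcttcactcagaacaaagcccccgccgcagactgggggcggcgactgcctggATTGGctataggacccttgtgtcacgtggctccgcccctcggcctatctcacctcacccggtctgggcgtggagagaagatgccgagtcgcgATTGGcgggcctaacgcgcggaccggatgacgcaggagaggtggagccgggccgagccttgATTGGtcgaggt
Insig1, chr5:28071162-28071411, plus strand: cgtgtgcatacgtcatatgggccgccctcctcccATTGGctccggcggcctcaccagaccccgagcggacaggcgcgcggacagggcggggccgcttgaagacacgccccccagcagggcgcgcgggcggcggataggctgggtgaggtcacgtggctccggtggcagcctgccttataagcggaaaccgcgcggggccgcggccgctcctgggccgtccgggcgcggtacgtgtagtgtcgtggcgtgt
The sterol element of Hmgcs1, read as TCACCCCAC, spans bases -137 to -129 from the start site, between 2 of the 3 CCAAT boxes in the printed stretch. CCAAT stood in 21 of the 27 genes, including 8 of the 9 called higher in Ep1 and 13 of the 18 others, against 41.1% of all genes. The GC box GGGCGG stood in 22 of the 27, against 38.2% of all genes, and the E-box CACGTG in 6 of the 27, against 8.09%. With up to 1 letter different, a looser match chosen after the values were seen, the sterol element stood in 11 of the 27 genes, against 26.7% of all. Of these, 7 were among the 9 called higher and 4 among the 18 others, and such looser matches overlapped CCAAT or GC boxes in some windows. These letters describe the windows only.

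Across the 35 genes, 34 had a mean of at least 1 FPKM (fragments per kilobase of the listed length, scaled to library depth) in either group and were tested on the log2(FPKM + 1) scale, and Fdps was not. In Ep1, 13 were higher and 1 was lower at an adjusted p under 0.05 from limma, a linear model fitted gene by gene with a shared variance estimate, and 20 passed in neither direction. The genes called higher were Acat2, Hmgcs1, Pmvk, Mvd, Fdft1, Cyp51, Nsdhl, Hsd17b7, Srebf2, Insig1, Stard4, Fads1 and Scd1, and Ggps1 was lower. Among all 14710 genes tested, 26.1% passed in either direction, 15.5% higher and 10.6% lower. The 13 of 34 make 38.2%. At an unadjusted p under 0.05, 17 of the 34 were higher and 2, Ggps1 and Tm7sf2, were lower, and limma with voom weights on whole fragments recovered from the FPKM called 12 higher and the same 2 lower. The median log2 change was 0.17 over the 34 genes, 25 of them with a positive change, and 0.01 over all genes tested. With quantile normalization the median of the 34 was 0.09, with 23 positive.

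**Figure D1:**
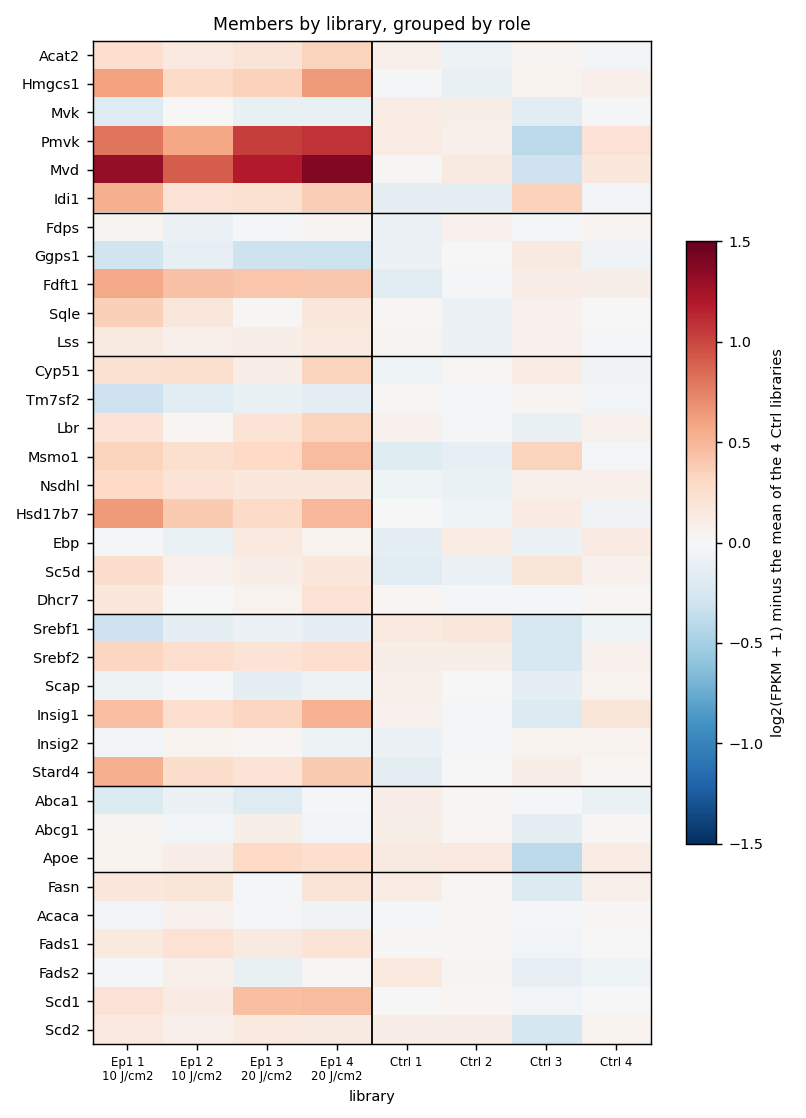
Each row is a gene and each column a library, with the 4 Ep1 libraries left of the 4 Ctrl libraries. Colour gives log2(FPKM + 1) minus the mean of the Ctrl libraries, and horizontal lines part the roles in the order acetyl-CoA to isoprenoid units, prenyl and squalene steps, lanosterol to cholesterol, SREBP control and sterol transport, efflux and carriage, and fatty acids. Mvd and Pmvk are the darkest rows in every Ep1 library. Ctrl 3 lies below the other Ctrl libraries in Apoe, Pmvk, Srebf2 and Scd2, and above them in Idi1 and Msmo1.

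Library by library, the 13 genes called higher stood above all 4 Ctrl values in 13 of 13 cases in Ep1 1, Ep1 2 and Ep1 4. In Ep1 3 they did so in 12 of 13, as Cyp51 lay inside the Ctrl range. The same values had chosen these genes, so their counts add no support of their own. Without regard to the test, all 4 Ep1 values lay above all 4 Ctrl values for 13 of the 34 genes and below them for 2, against 17.7% and 14.1% of all genes tested. Ctrl 3 held the lowest Ctrl value for 17 of the 35 genes and the highest for 12. It also differed in the share of fragments from mitochondrial genes, 5.08%, against 3.24% to 3.50% in the other Ctrl libraries, and 3.21% to 3.61% in Ep1. Its correlation with the other Ctrl libraries over log2(FPKM + 1) of all genes was 0.981 to 0.983, while Ep1 libraries correlated with each other at 0.988 to 0.991. Without Ctrl 3, 15 genes were higher and 2 lower, with no call lost: Idi1 and Msmo1 were added as higher and Srebf1 as lower. Each library held 15038147 to 17772972 fragments.

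The first group runs from acetyl-CoA to the isoprenoid units, and 4 of its 6 enzymes were higher in Ep1 and none lower, with a median log2 change of 0.40. For this group and the groups below, the shares over all genes tested were 15.5% higher and 10.6% lower. Mvd encodes mevalonate diphosphate decarboxylase, which makes isopentenyl diphosphate, and the table places it at chr8:122433601-122443422 on the minus strand of GRCm38. It had 26.0, 19.4, 23.8 and 27.5 FPKM in Ep1 1 to 4, against 10.0, 10.9, 7.76 and 11.1 FPKM in Ctrl 1 to 4. Every Ep1 library lay well above every Ctrl library. Its means were 24.2 ± 3.52 FPKM in Ep1 and 9.94 ± 1.52 FPKM in Ctrl (SD, n = 4 each), a ratio of 2.43, and the log2 change was 1.20 ± 0.13 (SE, limma adjusted p = 0.000532). This was the largest change among the 34 genes.

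Pmvk, phosphomevalonate kinase, acts one step before Mvd and lies at chr3:89454541-89469013 on the plus strand. It had 24.2, 20.7, 28.8 and 29.8 FPKM in Ep1, against 14.6, 14.3, 9.93 and 15.9 FPKM in Ctrl. The groups did not overlap, and the 2 libraries at 20 J/cm2 were the highest. The means were 25.9 ± 4.22 FPKM in Ep1 and 13.7 ± 2.60 FPKM in Ctrl, with a log2 change of 0.88 ± 0.15 (SE, limma adjusted p = 0.00434).

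Hmgcs1, the cytosolic HMG-CoA synthase, lies at chr13:119690379-119708260 on the plus strand, and its promoter window is the one with the full sterol element. It had 59.6, 47.4, 49.6 and 61.1 FPKM in Ep1, against 38.4, 35.8, 40.2 and 41.1 FPKM in Ctrl. All Ep1 values were above all Ctrl values, and Ep1 1 and Ep1 4 were the highest. The log2 change was 0.47 ± 0.09 (SE, limma adjusted p = 0.00629). Its 50-base words are the stretches of that length in its longest annotated protein-coding transcript, compared on both strands. Of these, 13.6% are shared with Gm48342, which overlaps Hmgcs1 on the opposite strand and was listed at 0.0575 to 0.366 FPKM.

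Mvk, mevalonate kinase, phosphorylates mevalonate directly before Pmvk, yet it had 7.13, 8.30, 7.62 and 7.60 FPKM in Ep1, against 9.02, 8.92, 7.28 and 8.14 FPKM in Ctrl. The groups overlapped, and the log2 change was -0.11, with a 95% interval of -0.28 to 0.06 (limma adjusted p = 0.321). The ratio of Mvd to Mvk within a library, a measure chosen after the values were seen, was 3.65, 2.34, 3.12 and 3.62 in Ep1 and 1.11, 1.22, 1.07 and 1.36 in Ctrl. The ratio of Pmvk to Mvk was 3.40, 2.49, 3.78 and 3.92 in Ep1 and 1.62, 1.60, 1.36 and 1.96 in Ctrl. Both ratios separated the groups, so Mvd and Pmvk transcripts did not change by the same factor as Mvk transcripts. As the ratios were built from values already seen, their separation adds no support of its own.

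Acat2, the cytosolic acetyl-CoA acetyltransferase that starts the route, averaged 18.2 ± 1.13 FPKM in Ep1 and 15.3 ± 0.851 FPKM in Ctrl. Its groups did not overlap (log2 change 0.23, limma adjusted p = 0.0244), but 45.9% of its 50-base words are shared with Acat3 and Tcp1, so its counts are uncertain. Its call was lost without Ep1 1, Ep1 4, Ctrl 2 or Ctrl 4. Idi1, which isomerises isopentenyl diphosphate, had 7.56, 5.91, 5.92 and 6.64 FPKM in Ep1, against 4.33, 4.34, 6.53 and 4.74 FPKM in Ctrl. Ctrl 3 alone reached the Ep1 range, and the change of 0.34 did not pass (limma adjusted p = 0.0690). Without Ctrl 3 it passed at a limma adjusted p of 0.00707, with a log2 change of 0.45. Idi1 shares 30.5% of its 50-base words with 5 other genes, among them Gm13502, and overlaps Gm48574 on the opposite strand. Its counts are therefore uncertain too.

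**Figure D2:**
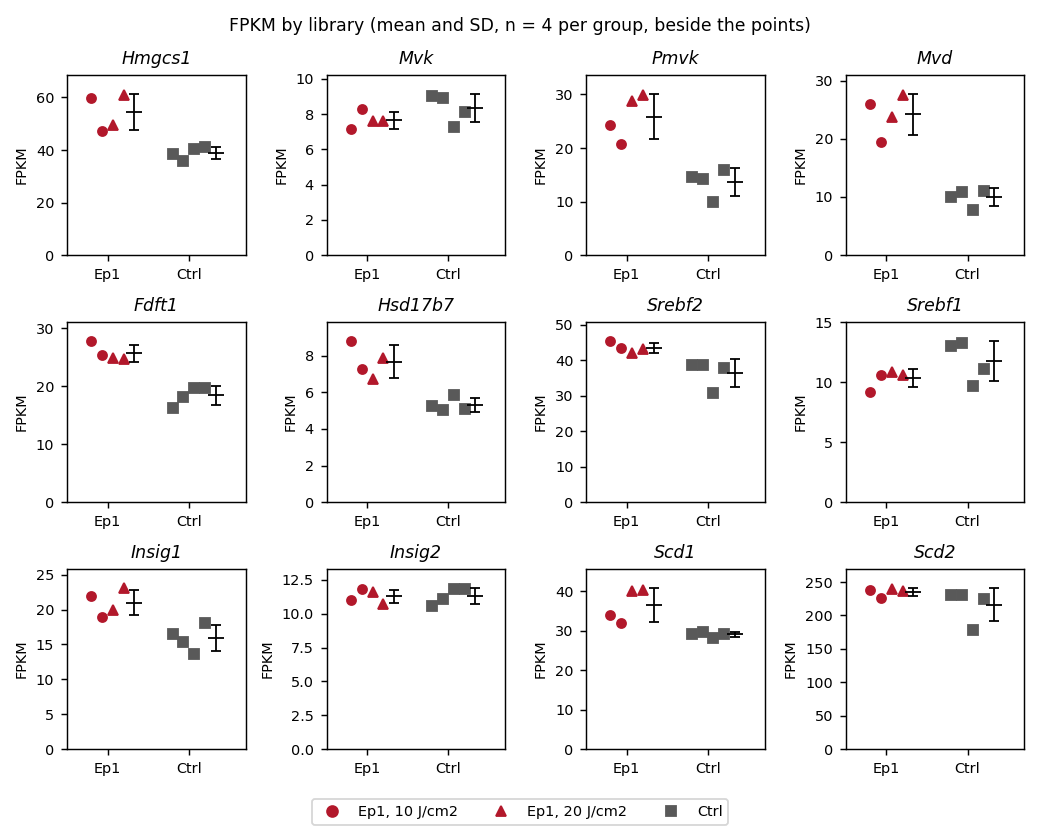
FPKM per library for 12 genes, with Ep1 left of Ctrl in each panel, circles for 10 J/cm2, triangles for 20 J/cm2 and squares for Ctrl. The bars beside the points are the mean and SD over 4 libraries. Hmgcs1, Pmvk, Mvd, Fdft1, Hsd17b7, Srebf2, Insig1 and Scd1 do not overlap between groups, while their partners Mvk, Srebf1, Insig2 and Scd2 do.

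At the prenyl and squalene steps, 1 of 4 tested enzymes was higher and 1 lower, with a median log2 change of 0.15. Fdft1, squalene synthase, makes the first intermediate that only sterol synthesis uses, and lies at chr14:63145150-63179578 on the minus strand. It had 27.8, 25.3, 24.9 and 24.7 FPKM in Ep1, against 16.3, 18.1, 19.7 and 19.6 FPKM in Ctrl. The groups lay apart, with a log2 change of 0.46 ± 0.07 (SE, limma adjusted p = 0.00248). Fdft1 shares 30.7% of its 50-base words, and overlaps Ctsb on the opposite strand. Ctsb, a lysosomal protease chosen after its values were seen, averaged 91.9 ± 5.70 FPKM in Ep1 and 83.5 ± 5.0 FPKM in Ctrl (limma adjusted p = 0.155). How much of the Fdft1 signal comes from such shared sequence was not tested.

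Ggps1, which makes the geranylgeranyl diphosphate used to prenylate proteins and so leads away from sterols, was the only member called lower. It had 7.37, 8.49, 7.29 and 7.27 FPKM in Ep1, against 8.71, 9.39, 10.3 and 8.91 FPKM in Ctrl. All Ep1 values were below all Ctrl values, Ep1 2 coming closest (log2 change -0.26 ± 0.07 SE, limma adjusted p = 0.0241). The call was lost without Ep1 1, Ep1 3, Ep1 4 or Ctrl 2, and over the 17 alternatives its adjusted p ran from 0.0104 to 0.0702. Its transcript overlaps Arid4b on the opposite strand, and 11.8% of its 50-base words are shared with other genes.

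Sqle, squalene epoxidase, averaged 12.8 ± 1.30 FPKM in Ep1 and 11.1 ± 0.544 FPKM in Ctrl with overlapping groups (limma adjusted p = 0.0981). Lss, lanosterol synthase, had 5.15, 4.90, 5.01 and 5.18 FPKM in Ep1, against 4.76, 4.24, 4.86 and 4.51 FPKM in Ctrl. Its groups did not overlap, but the log2 change of 0.12 did not pass (limma adjusted p = 0.162). Fdps, farnesyl diphosphate synthase, was listed at only 0.371 ± 0.0594 FPKM in Ep1 and 0.375 ± 0.0665 FPKM in Ctrl. As 86.4% of its 50-base words occur in 8 other genes, among them Gm43738 and Gm3571, its expression cannot be read from these values.

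Of the 9 enzymes between lanosterol and cholesterol, 3 were higher in Ep1 and none lower, with a median log2 change of 0.20. Hsd17b7, the sterol 3-ketoreductase, lies at chr1:169949535-169969241 on the minus strand and had 8.81, 7.25, 6.71 and 7.89 FPKM in Ep1, against 5.27, 5.04, 5.87 and 5.08 FPKM in Ctrl. The Ep1 values were all above the Ctrl values (log2 change 0.45 ± 0.08 SE, limma adjusted p = 0.00480). Nsdhl, its partner in removing the methyl groups at carbon 4, had 8.38, 7.80, 7.47 and 7.50 FPKM in Ep1, against 6.29, 6.12, 7.05 and 7.01 FPKM in Ctrl. Its groups did not overlap (log2 change 0.21, limma adjusted p = 0.0423), and Ctrl 3 was the only library whose removal left that call standing.

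Cyp51, the lanosterol 14-alpha-demethylase, had 13.7, 13.9, 12.5 and 14.8 FPKM in Ep1, against 11.0, 11.7, 12.6 and 11.1 FPKM in Ctrl. Ep1 3 lay just under Ctrl 3, so the groups overlapped at the edge (log2 change 0.22, limma adjusted p = 0.0370), and the call was lost without any of Ep1 1, Ep1 2, Ep1 4, Ctrl 1, Ctrl 2 or Ctrl 4. Msmo1, the C4-methylsterol oxidase, had 12.4, 11.5, 12.1 and 13.6 FPKM in Ep1, against 8.40, 8.72, 12.4 and 9.40 FPKM in Ctrl. As with Idi1, Ctrl 3 alone stood in the Ep1 range. The change of 0.33 did not pass (limma adjusted p = 0.0556), and it passed without Ctrl 3 at an adjusted p of 0.00302 with a log2 change of 0.44.

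Tm7sf2 and Lbr both reduce the C14 double bond, and their changes had opposite signs without either passing. Tm7sf2 had 4.55, 5.16, 5.39 and 5.30 FPKM in Ep1, against 5.99, 5.83, 6.08 and 5.71 FPKM in Ctrl. Its groups did not overlap, and the log2 change of -0.18 missed the threshold (limma adjusted p = 0.0589), which it passed as lower in 4 of the 17 alternatives. Lbr averaged 3.53 ± 0.376 FPKM in Ep1 and 2.95 ± 0.226 FPKM in Ctrl, with overlap (log2 change 0.20, limma adjusted p = 0.0997). None of the last steps passed. Ebp, the sterol isomerase, averaged 6.08 FPKM in Ep1 and 6.00 FPKM in Ctrl, with a 95% interval of the log2 change from -0.17 to 0.21. Sc5d, the C5 desaturase, gave an interval of -0.04 to 0.34, and Dhcr7, the 7-dehydrocholesterol reductase, one of -0.03 to 0.24.

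**Figure D3:**
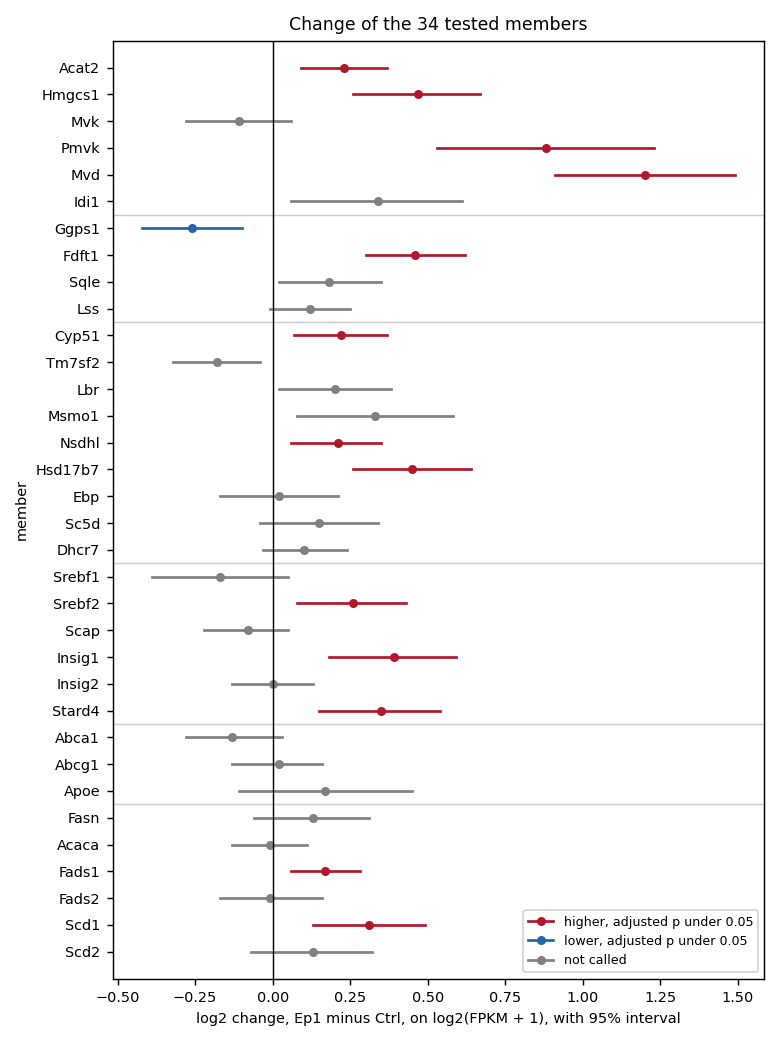
Log2 change in Ep1 against Ctrl on the log2(FPKM + 1) scale, with 95% intervals, for the 34 tested genes in pathway order from top to bottom. Red marks genes called higher, blue the gene called lower and grey those not called. Mvd at 1.20 and Pmvk at 0.88 stand right of all other genes, and Ggps1 at -0.26 is the only blue point.

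Among the 6 genes of SREBP control and sterol transport, 3 were higher and none lower, with a median log2 change of 0.13. Insig1, an inhibitor of SREBP processing and itself a known SREBP target, lies at chr5:28071363-28078662 on the plus strand. It had 21.9, 19.0, 20.0 and 23.1 FPKM in Ep1, against 16.5, 15.4, 13.6 and 18 FPKM in Ctrl. The lowest Ep1 value was just above the highest Ctrl value (log2 change 0.39 ± 0.09 SE, limma adjusted p = 0.0151). Its paralog Insig2 had 11.0, 11.8, 11.6 and 10.7 FPKM in Ep1, against 10.6, 11.1, 11.8 and 11.8 FPKM in Ctrl, with full overlap and a 95% interval from -0.13 to 0.13. The ratio of Insig1 to Insig2 was 1.99, 1.60, 1.72 and 2.16 in Ep1 and 1.56, 1.39, 1.16 and 1.52 in Ctrl, without overlap. That ratio was also chosen after the values were seen.

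Srebf2 encodes the SREBP that chiefly drives sterol genes. It had 45.4, 43.4, 41.9 and 43.2 FPKM in Ep1, against 38.5, 38.5, 30.6 and 37.9 FPKM in Ctrl. The groups did not overlap and Ctrl 3 was the lowest (log2 change 0.26, limma adjusted p = 0.0418). The call was lost when any library other than Ctrl 3 was left out. Srebf1, whose SREBP-1c form chiefly drives fatty acid genes, had 9.22, 10.6, 10.9 and 10.6 FPKM in Ep1, against 13.0, 13.3, 9.72 and 11.1 FPKM in Ctrl. Its groups overlapped through Ctrl 3, and the change of -0.17 did not pass (limma adjusted p = 0.225) unless Ctrl 3 was left out, where it was -0.25 at an adjusted p of 0.0439.

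Srebf2 over Srebf1 was 4.92, 4.08, 3.85 and 4.09 in Ep1 and 2.95, 2.91, 3.15 and 3.40 in Ctrl, so that the ratio separated the groups with Ctrl 3 included. It too was a measure chosen after the values were seen. Rai1, which overlaps Srebf1 on the opposite strand and was chosen after its values were seen, averaged 19.0 ± 1.89 FPKM in Ep1 and 12 ± 1.62 FPKM in Ctrl. Strandedness of the counting is not given in the sources used here, and 1.41% of the Srebf1 50-base words are shared with Rai1. Scap, the escort of SREBPs, averaged 13.7 ± 0.502 FPKM in Ep1 and 14.6 ± 0.994 FPKM in Ctrl (log2 interval -0.22 to 0.05). Stard4, a cytosolic sterol carrier, had 8.91, 7.21, 6.88 and 8.01 FPKM in Ep1, against 5.20, 5.90, 6.36 and 6.01 FPKM in Ctrl. It did not overlap between groups (log2 change 0.35 ± 0.09 SE, limma adjusted p = 0.0178), and lost its call without Ep1 4.

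None of the 3 efflux and carrier genes passed in either direction by limma, and 0 had an unadjusted p under 0.05 or a call with voom weights. Apoe, the apolipoprotein of astrocyte-derived particles, had 504, 519, 596 and 577 FPKM in Ep1, against 533, 540, 370 and 524 FPKM in Ctrl. The groups overlapped, and the 2 libraries at 20 J/cm2 were the highest and Ctrl 3 the lowest (log2 interval -0.11 to 0.45, limma adjusted p = 0.337). The efflux pump Abca1 averaged 3.75 ± 0.299 FPKM in Ep1 and 4.18 ± 0.289 FPKM in Ctrl (log2 interval -0.28 to 0.03). Its relative Abcg1 averaged 12.4 ± 0.541 FPKM in Ep1 and 12.2 ± 0.898 FPKM in Ctrl (log2 interval -0.13 to 0.16).

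In fatty acid synthesis and desaturation, 2 of 6 enzymes were higher and none lower, with a median log2 change of 0.13. Both are desaturases. Scd1, which makes monounsaturated fatty acids, had 34.0, 31.9, 40.1 and 40.4 FPKM in Ep1, against 29.3, 29.7, 28.3 and 29.1 FPKM in Ctrl. The Ctrl values were tight and all Ep1 values lay above them, highest at 20 J/cm2 (log2 change 0.31 ± 0.08 SE, limma adjusted p = 0.0211), though the call was lost without Ep1 3 or Ep1 4. Scd2, the more abundant paralog in these libraries, had 238, 226, 239 and 236 FPKM in Ep1, against 231, 231, 179 and 224 FPKM in Ctrl, overlapping, with a log2 interval of -0.07 to 0.32. Scd1 over Scd2, a ratio also chosen after the values were seen, was 0.14, 0.14, 0.17 and 0.17 in Ep1. In Ctrl it was 0.13, 0.13, 0.16 and 0.13, so this ratio overlapped between the groups. Scd1 and Scd2 share 4.66% and 4.01% of their 50-base words with other genes, each other included.

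Fads1, the delta-5 desaturase of polyunsaturated fatty acids, had 46.9, 49.3, 46.6 and 49.1 FPKM in Ep1, against 42.8, 43.3, 41.3 and 42.4 FPKM in Ctrl. The groups did not overlap, at a small log2 change of 0.17 ± 0.05 (SE, limma adjusted p = 0.0282). That call was lost without Ep1 1, Ep1 2, Ep1 4, Ctrl 1, Ctrl 2 or Ctrl 4. Its neighbour Fads2, the delta-6 desaturase, averaged 38.1 ± 2.12 FPKM in Ep1 and 38.4 ± 3.35 FPKM in Ctrl (log2 interval -0.17 to 0.16). The 2 enzymes that build palmitate did not pass either. Fasn, fatty acid synthase, averaged 39.9 ± 2.77 FPKM in Ep1 and 36.5 ± 3.55 FPKM in Ctrl (log2 interval -0.06 to 0.31), and Acaca, acetyl-CoA carboxylase 1, averaged 4.90 ± 0.213 FPKM in Ep1 and 4.95 ± 0.0844 FPKM in Ctrl (log2 interval -0.13 to 0.11). Acaca shares 52.6% of its 50-base words with Gm5182.

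With the energies taken apart, 4 of the 34 genes were higher and none lower at 10 J/cm2 against Ctrl, where 7.29% and 3.26% of all genes tested were. They were Pmvk, Mvd, Fdft1 and Hsd17b7, and 2 genes were lower at an unadjusted p under 0.05 by limma. At 20 J/cm2 against Ctrl, 8 were higher and 1 lower, where 13.9% and 9.66% of all genes were: those 4 with Acat2, Hmgcs1, Insig1 and Scd1, and Ggps1 lower. Each energy has 2 libraries, and both comparisons use the same Ctrl libraries. Mvd gave log2 changes of 1.11 and 1.29 at 10 and 20 J/cm2, Pmvk 0.69 and 1.06, Hmgcs1 0.44 and 0.49, and Fdft1 0.51 and 0.41. These counts turned on single libraries: the count at 10 J/cm2 was 0 without Ep1 1, 2 without Ctrl 2 and 9 without Ctrl 3. Where 1 library of an energy remained, it was assumed to vary like the other groups. The count of higher genes at 20 J/cm2 was 4 without Ep1 3, 2 without Ep1 4, 5 without Ctrl 1 or Ctrl 2 and 14 without Ctrl 3.

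Set directly against each other, 20 J/cm2 and 10 J/cm2 gave 0 calls among the 34 genes by limma, where 0.0068% of all genes were higher and 0% lower at 20 J/cm2. At an unadjusted p under 0.05 the comparison gave 1 gene, Scd1, with 40.1 and 40.4 FPKM at 20 J/cm2 and 34.0 and 31.9 FPKM at 10 J/cm2. Its log2 change was 0.28 (limma adjusted p = 0.504). Both libraries at 20 J/cm2 lay above both at 10 J/cm2.

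Genes around the pathway were counted from lists with the 35 genes left out. Beside each of these lists stand the shares over all genes tested, 15.5% higher and 10.6% lower. Of 23 other sterol genes tested, 4 were higher and 2 lower, with a median log2 change of 0.07. The 4 higher make 17.4%, close to the share over all genes. Scarb1, a receptor for high-density lipoprotein, had 6.99, 5.38, 6.71 and 7.32 FPKM in Ep1, against 3.12, 3.10, 2.43 and 3.32 FPKM in Ctrl. It lay clearly above Ctrl in each Ep1 library (log2 change 0.93 ± 0.10 SE, limma adjusted p = 0.000604). Pltp, the phospholipid transfer protein, averaged 9.06 ± 0.959 FPKM in Ep1 and 16.2 ± 3.36 FPKM in Ctrl, without overlap (log2 change -0.75, limma adjusted p = 0.00526).

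Of 17 further genes of SREBP control, none was higher and 2 were lower by limma, with a median log2 change of -0.02. At an unadjusted p under 0.05 there was 1 higher, and with voom weights 0. The lower count was 0 without Ep1 1, Ep1 3, Ep1 4 or Ctrl 2, 1 without Ctrl 1, Ctrl 3 or Ctrl 4, with no filter or with a replicate block, and 4 with quantile normalization. The 2 lower genes were Erlin2, which takes part in degrading sterol-regulated proteins of the endoplasmic reticulum, at 7.81 ± 0.642 FPKM in Ep1 and 9.70 ± 0.712 FPKM in Ctrl, and Mbtps2, the site-2 protease of SREBPs, at 2.68 ± 0.247 FPKM in Ep1 and 3.33 ± 0.267 FPKM in Ctrl. Mbtps1, the site-1 protease, averaged 8.89 FPKM in Ep1 and 9.91 FPKM in Ctrl and did not pass (limma adjusted p = 0.0675). Of 17 genes on the non-sterol branch, 1 was higher and 1 lower. Without Ep1 2 there were 3 higher, and without Ctrl 3 or with quantile normalization 2 lower. Rabggtb, a subunit of the enzyme that prenylates Rab proteins, averaged 17.2 ± 0.455 FPKM in Ep1 and 13.5 ± 0.756 FPKM in Ctrl. Srd5a3, which makes dolichol, averaged 2.73 ± 0.272 FPKM in Ep1 and 3.96 ± 0.303 FPKM in Ctrl, and Rce1, a protease of prenylated proteins, 9.88 FPKM in Ep1 and 8.08 FPKM in Ctrl without passing (limma adjusted p = 0.0567).

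Fatty acid synthesis and elongation outside the 35 genes had 8 higher and 1 lower of 32 tested, with a median log2 change of 0.08. The higher count was 3 without Ep1 4 or Ctrl 1, with quantile normalization or with a replicate block, and 4 without Ep1 1, Ep1 3, Ctrl 2 or Ctrl 4, with no filter or without mitochondrial genes. The lower call was lost in each of those cases except quantile normalization and the removal of mitochondrial genes. Thrsp, a lipogenic protein known as Spot 14, had 23.0, 17.7, 23.5 and 24.5 FPKM in Ep1, against 8.09, 8.10, 8.06 and 7.40 FPKM in Ctrl. The gap between the groups was wide (log2 change 1.37 ± 0.10 SE). Fads3, of the desaturase cluster that holds Fads1 and Fads2, averaged 13.5 ± 1.86 FPKM in Ep1 and 8.99 ± 0.705 FPKM in Ctrl, and Mlx, the partner of the lipogenic factor ChREBP, 16.0 ± 1.02 FPKM in Ep1 and 11.6 ± 1.36 FPKM in Ctrl. In oxidation and storage, 10 were higher and 1 lower of 28, led by Ucp2, Plin4 and Angptl4. The lower count was 2 without Ep1 2, with a pseudocount of 0.1, with median-of-ratios scaling, without mitochondrial genes or with voom. Plin4, a lipid droplet coat protein, averaged 5.21 ± 1.16 FPKM in Ep1 and 0.625 ± 0.224 FPKM in Ctrl, and the mitochondrial carrier Ucp2 averaged 10.0 ± 0.920 FPKM in Ep1 and 4.39 ± 0.238 FPKM in Ctrl. Angptl4, a secreted inhibitor of lipoprotein lipase, averaged 4.73 ± 1.55 FPKM in Ep1 and 0.881 ± 0.134 FPKM in Ctrl.

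Of 9 other LXR targets, none was higher and 3 were lower by limma, namely Pltp, Arl4c and Lpl, with 1 higher at an unadjusted p under 0.05 and 0 with voom weights. Arl4c, a small GTPase, averaged 9.83 ± 0.0816 FPKM in Ep1 and 11.4 ± 0.403 FPKM in Ctrl. Lpl, lipoprotein lipase, averaged 2.06 ± 0.794 FPKM in Ep1 and 3.68 ± 0.511 FPKM in Ctrl.

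Markers of brain cell types moved between the groups beside these genes. For each cell type list, the shares over all genes tested were 15.5% higher and 10.6% lower. Bulk RNA cannot tell fewer cells of a type from less RNA per cell. Of 10 astrocyte markers 5 were higher and none lower by limma, and their summed level was 603 to 643 FPKM in Ep1 and 552 to 573 FPKM in Ctrl. Of the most abundant, Aldoc was higher at 179 ± 6.29 FPKM in Ep1 and 143 ± 15.9 FPKM in Ctrl (limma adjusted p = 0.0203), and Slc1a2 did not pass at 195 ± 7.30 FPKM in Ep1 and 216 ± 6.86 FPKM in Ctrl (limma adjusted p = 0.0831). Oligodendrocyte markers gave 4 lower and none higher of 12, at 1046 to 1363 FPKM in Ep1 and 1007 to 1351 FPKM in Ctrl. Mbp averaged 303 ± 37.8 FPKM in Ep1 and 312 ± 62.0 FPKM in Ctrl, with overlap. Microglial markers gave 1 higher and 5 lower of 7, at 86.7 to 97.8 FPKM in Ep1 and 107 to 115 FPKM in Ctrl. C1qa was higher, at 35.9 ± 5.40 FPKM in Ep1 and 26.4 ± 2.84 FPKM in Ctrl (limma adjusted p = 0.0240). Red cell genes gave 4 higher of 5, at 88.4 to 294 FPKM in Ep1 and 26.1 to 35.9 FPKM in Ctrl. Choroid plexus markers ranged widely, at 17.7 to 431 FPKM in Ep1 and 372 to 708 FPKM in Ctrl, with 1 lower of 5. At 20 J/cm2 against Ctrl 4 of these 5 were lower, where 9.66% of all genes tested were. At 10 J/cm2 against Ctrl 0 of the 5 were lower by limma, where 3.26% of all genes were. At an unadjusted p under 0.05, 1 was lower and 1 higher there. Set against each other by limma, 20 and 10 J/cm2 gave 0 calls on this list and 4 lower at an unadjusted p under 0.05.

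Although 1 label names brain microvessel endothelial cells, neuronal markers summed to 1487 to 1643 FPKM in Ep1 and 1540 to 1693 FPKM in Ctrl, and endothelial markers to 68.3 to 90.5 FPKM in Ep1 and 76.5 to 82.9 FPKM in Ctrl. The endothelial list gave 4 higher and 5 lower of 10, with Cldn5 at 32.9 ± 6.18 FPKM in Ep1 and 21.1 ± 3.51 FPKM in Ctrl and Itm2a at 10.9 ± 0.862 FPKM in Ep1 and 25.8 ± 1.58 FPKM in Ctrl. There were 1 higher and 1 lower on the neuronal list of 10, 1 lower of 6 oligodendrocyte precursor markers, and 1 lower of 5 in both the pericyte and the meningeal lists. Where a list had no call in 1 direction, voom weights gave none there either, except for 2 lower astrocyte markers. An unadjusted p under 0.05 added 2 lower astrocyte markers and 1 higher meningeal marker in those directions. No marker was listed at 0 in any library. The part of these shifts in the changes of the sterol and fatty acid genes was not tested.

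Of the 13 genes called higher, 6 kept that call under all 17 alternatives: Mvd, Fdft1, Pmvk, Hsd17b7, Hmgcs1 and Insig1. The call of Ggps1 did not hold under all of them. Stard4 was lost in 2 of the 17, Scd1 in 5, Acat2 in 7, and Cyp51, Nsdhl, Srebf2 and Fads1 in 11 or more.

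**Figure D4:**
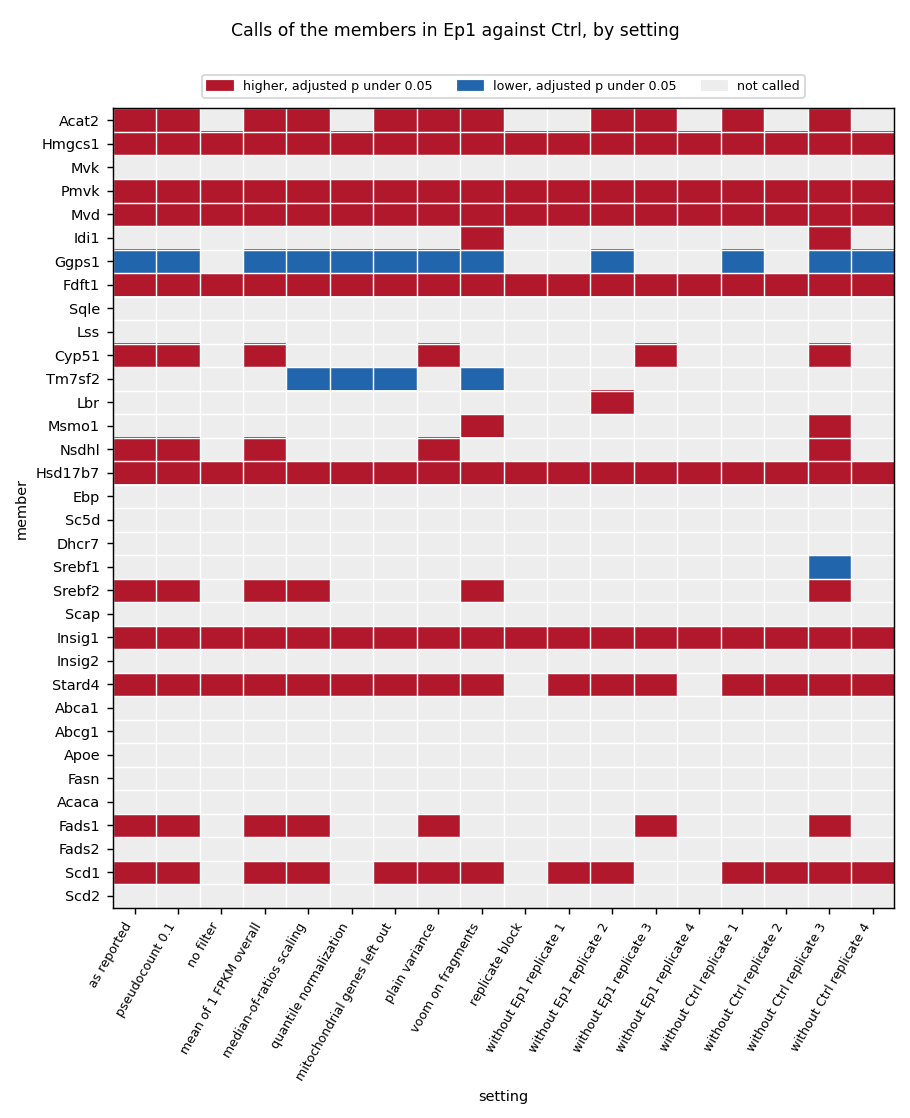
Calls of the 34 tested genes, one row each, under the reported setting in the leftmost column and the 17 alternatives to its right. Red is higher and blue lower in Ep1 at an adjusted p under 0.05, and pale cells are not called. The rows of Mvd, Fdft1, Pmvk, Hsd17b7, Hmgcs1 and Insig1 are red throughout, while the blue row of Ggps1 is broken.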

How the data were processed

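RNA was measured in 8 libraries of total RNA taken up in Trizol, per the labels' protocols. The authors deposited FPKM values per gene with listed gene lengths, and the column letters and numbers were read as Ctrl 1 to 4 and Ep1 1 to 4, which is an inference. Per the submitters' processing notes, Bowtie 0.12.2 and mm8 were used in a role not stated, while 99.4% of 55141 identifiers had the start and end of GENCODE M21 on GRCm38. The counter and its strand setting are not given in the sources used here. Multiplied by length and rescaled, 100% of values came out as whole fragments within 0.01, and this gave the depth per library.

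The fit used log2(FPKM + 1) of genes whose mean reached 1 FPKM in Ep1 or in Ctrl. It was made in limma 3.58.1 under R 4.3.3 with a trended, robust variance and with Benjamini-Hochberg adjustment over all 14710 genes at 0.05. Fold changes on this scale understate those of low genes. The energies came from a second fit with 3 groups. The 17 alternatives changed the pseudocount to 0.1, the scaling, the filter, the block, the variance model and the libraries included, and 1 was voom on recovered fragments. Shared sequence was counted as 50-base words of each member's longest protein-coding GENCODE transcript that occur, on either strand, in a transcript of another gene.

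Members, lists and tests were chosen with earlier results of these data known. Named are all 35 members, the 3 genes of smallest p from each related list and the 2 most abundant markers of each cell type. Values are given for 6 of these markers. Most cell type lists are also given as sums, but the oligodendrocyte precursor, pericyte and meningeal lists only as counts of calls. Some genes that this rule takes are not reported here. Tables were made in Python 3.11.15 with pandas 2.3.3.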

Additional observations from a re-analysis of the deposited data

Results flagged for a closer look

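Within groups of 4 libraries, 4 of 70 sets of values held a library far from the other 3 for its group's range, where chance gives about 1 in 20. Ggps1 stood at 8.49 FPKM in Ep1 2, above the next highest Ep1 value of 7.37 FPKM. The other 3 lay in Ctrl 3, all below the rest of Ctrl. Srebf2 was at 30.6 FPKM there with the next Ctrl value at 37.9 FPKM, Apoe at 370 FPKM with the next at 524 FPKM, and Scd2 at 179 FPKM with the next at 224 FPKM. Ctrl 3 is also the library with 5.08% of its fragments from mitochondrial genes, and the part of that share in these low values was not tested.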

How the results depend on the processing

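The count of members called, 14 as reported, was 7 with no filter, 9 with quantile normalization, 6 with a replicate block and 6 to 17 when 1 library was left out. Members called higher, 13 as reported, were 7 with no filter, 7 with quantile normalization, 6 with the replicate block and 6 to 15 when 1 library was left out. Members called lower, 1 as reported, were 0 with no filter or the replicate block, 2 with median-of-ratios scaling, quantile normalization, mitochondrial genes left out or voom on recovered fragments, and 0 to 2 when 1 library was left out. The lowest counts of members called and of members called higher came without Ep1 4, and without it 2427 genes were called over the whole table, against 3841 as reported and 2427 to 4141 over all libraries left out. Energies apart, the higher count at 10 J/cm2 was 2 with no filter and 0 to 9 over libraries left out. At 20 J/cm2 it was 4 with no filter and 2 to 14, and the lower count was 0 with no filter and 0 to 1. With no filter, 33219 genes entered, and the causes of the other shifts were not tested.

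No pairing by replicate number showed in the values: same-numbered libraries deviated from their group means with correlations of -0.04, 0.03, -0.05 and 0.06, and only Ep1 4 correlated best with the Ctrl library of its own number. Such low correlations can miss a pairing, so a pairing is not excluded. Among all genes called, 59.2% were higher as reported, but 49.4% with quantile normalization, 49.6% without mitochondrial genes and 49.2% with voom, while the median log2 change of all genes stayed between -0.03 and 0.01 under every setting.

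In Ep1 against Ctrl, the changes that turned sign were not called in any setting. Ebp was -0.01 with quantile normalization, without mitochondrial genes and with voom, Abcg1 -0.04, -0.02 and -0.01, and Camk2a -0.04, -0.02 and -0.01. With 1 library left out, Ebp ran from -0.03 to 0.06, Insig2 from -0.03 to 0.02, Abcg1 from -0.03 to 0.05, Fads2 from -0.05 to 0.04, Mbp from -0.14 to 0.06, Olig1 from -0.18 to 0.03, Kl from -0.42 to 0.02 and Pdgfra from -0.04 to 0.01. The 37 named genes outside the members kept direction and side of the threshold in 578 of 629 recomputed values.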
